A study of Mus musculus with 768 samples.

Results

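Chemokines are small secreted proteins that direct the migration of leukocytes through G protein-coupled receptors, and fibroblasts are a known source of them in tumors. The transcripts described here are those of 10 chemokine genes, Cxcl12, Cxcl14, Cxcl1, Cxcl10, Cxcl16, Ccl2, Ccl7, Ccl8, Ccl11 and Cx3cl1, taken by symbol from the 24490 endogenous genes of the tables. Ligands of the CXC type act largely on neutrophils, lymphocytes and progenitor cells, those of the CC type on monocytes, eosinophils and T cells, and fractalkine, the product of Cx3cl1, on cells that carry its receptor Cx3cr1. Cxcl16 and Cx3cl1 encode transmembrane proteins that proteases can shed.

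The cells came from mammary tumors of 2 mice of the strain FVB/N-Tg(MMTVPyVT)634Mul/J, aged 14 weeks, in which a transgene under the mouse mammary tumor virus promoter expresses the polyoma middle T oncogene in the mammary epithelium. All carried this transgene, no treatment is named, and cells negative for EpCAM, CD45, CD31 and NG2 were sorted 1 per well and sequenced by Smart-seq2 as cancer-associated fibroblasts (CAFs). The sort was set against epithelial cells, leukocytes, endothelial cells and NG2-bearing pericytes. Each tumor filled 1 plate of 384 wells, so tumor and plate cannot be told apart, and the tumor is the replicate (n = 2). Of 768 wells, 727 held at least 10000 reads of endogenous genes and were kept, 373 of tumor 1 and 354 of tumor 2.

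Cells were divided by the pericyte-associated gene Rgs5, a regulator of G protein signaling, and by Dcn, which encodes the matrix proteoglycan decorin. A cell was called high for one of them when its log2(RPKM + 1), where RPKM is the authors' read count per gene length and depth, was at least 6 and led the other gene by at least 2. The Rgs5-high, vascular-like class held 262 cells of tumor 1 and 240 of tumor 2, the Dcn-high, matrix-like class 86 and 84, and 25 and 30 cells were in neither. Leaving aside Rgs5 and Dcn themselves, the 8 other vascular markers on a list were called higher in Rgs5-high cells and the 8 other matrix markers higher in Dcn-high cells by the test described with the chemokines. Cells within 1 log2 unit of either limit numbered 5 and 3 in the Rgs5-high and 4 and 3 in the Dcn-high class. The median number of reads per cell was 203068 and 191482 in Rgs5-high cells of tumors 1 and 2 and 275379 and 232394 in Dcn-high cells, while the median share of reads from the added ERCC spike-ins was 14.3% and 12.3% against 6.33% and 6.22%.

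On the mouse assembly GRCm38 (mm10), Ccl2 lies at chr11:82035577-82037452, Ccl7 at chr11:82045712-82047525, Ccl11 at chr11:82057832-82062955 and Ccl8 at chr11:82115185-82116799, all 4 on the plus strand within 81.2 kb, with Ccl12, not a member, between Ccl11 and Ccl8. Cxcl16 lies apart from them at chr11:70454389-70459984. The remaining genes are Cxcl12 (chr6:117168535-117181368), Cxcl14 (chr13:56288643-56296811), Cxcl1 (chr5:90891245-90893121), Cxcl10 (chr5:92346638-92348889) and Cx3cl1 (chr8:94772180-94782427). In 8 of the 10 genes, no stretch of 43 bases, the read length, occurred in a transcript of another gene. Of such stretches 17.5% in Cxcl16 were shared with Zmynd15 and 3.91% in Cxcl10 with Art3, which overlap them on the other strand, and reads of these overlaps cannot be told apart, since no use of strand in the counting is stated in the sources used here.

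The RefSeq promoter table of GRCm38.p6 held 6 of the 10 genes. The 250 bases before the start that this table uses are given for the 4 of these in which a searched motif was found, to show where it lies. The motifs, searched on both strands, were GGAATTTCC, a form of the NF-kB site, TGANTCA of AP-1, AAAGTGAAA of interferon response elements, and TATAAA, and capitals mark the matches. They occur in 0.286%, 6.75%, 0.511% and 12.4% of the 32851 windows of this length in the table.
Cxcl1, chr5:90890995-90891244, plus strand: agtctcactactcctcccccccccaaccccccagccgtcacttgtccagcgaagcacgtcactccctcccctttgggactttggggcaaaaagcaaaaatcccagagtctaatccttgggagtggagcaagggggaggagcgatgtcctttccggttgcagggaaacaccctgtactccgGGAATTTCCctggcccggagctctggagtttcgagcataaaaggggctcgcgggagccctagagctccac
Cxcl10, chr5:92348890-92349139, minus strand: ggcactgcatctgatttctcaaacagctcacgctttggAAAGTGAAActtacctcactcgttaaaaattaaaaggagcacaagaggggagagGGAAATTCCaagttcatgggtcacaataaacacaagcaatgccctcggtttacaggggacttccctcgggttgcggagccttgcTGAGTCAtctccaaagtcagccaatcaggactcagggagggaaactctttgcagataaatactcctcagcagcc
Ccl8, chr11:82114935-82115184, plus strand: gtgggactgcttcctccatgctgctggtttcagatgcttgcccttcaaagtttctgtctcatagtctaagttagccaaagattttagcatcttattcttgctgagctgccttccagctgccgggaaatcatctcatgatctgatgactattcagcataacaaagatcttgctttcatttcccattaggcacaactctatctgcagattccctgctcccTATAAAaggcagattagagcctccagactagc
Cx3cl1, chr8:94771930-94772179, plus strand: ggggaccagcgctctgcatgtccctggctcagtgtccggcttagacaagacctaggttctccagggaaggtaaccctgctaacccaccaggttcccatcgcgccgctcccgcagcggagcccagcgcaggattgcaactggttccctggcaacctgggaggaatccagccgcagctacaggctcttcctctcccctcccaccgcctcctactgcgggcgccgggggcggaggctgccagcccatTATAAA
The window of Cxcl1 holds the NF-kB form, and that of Cxcl10 holds it with the AP-1 and interferon motifs. Those of Ccl8 and Cx3cl1 hold TATAAA, and that of Cxcl12 holds none of the searched motifs. The table's window of Cxcl14 lies inside the outer bounds of the gene given above and is not described further. A match of letters is a description and does not show that a factor bound there.

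Dcn-high cells carried reads of more chemokines than Rgs5-high cells. Whether they also carried reads of more genes of any kind was not tested. A median of 4 and 3 of the 10 genes had a read in a Dcn-high cell of tumors 1 and 2, against 1 and 1 in a Rgs5-high cell. No gene of the list had a read in 55 of 262 and 61 of 240 Rgs5-high cells, but in 0 of 86 and 1 of 84 Dcn-high cells. At least 4 were read in 53 and 31 Dcn-high cells and in 23 and 12 Rgs5-high cells. With every cell thinned to 50000 reads, which left out 7 and 14 Rgs5-high and 5 and 4 Dcn-high cells, the medians were the same, and 54.3% and 32.5% of Dcn-high cells against 3.92% and 2.65% of Rgs5-high cells had at least 4.

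**Figure D1:**
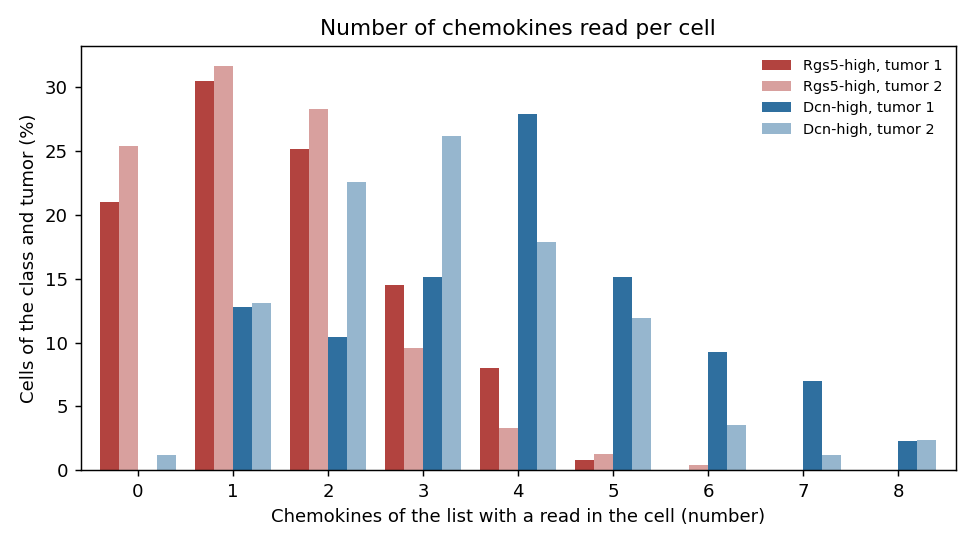
Number of the 10 chemokines with at least 1 read in a cell (x axis) against the percent of cells of that class and tumor (y axis), before thinning, with Rgs5-high cells in red and Dcn-high cells in blue, tumor 1 dark and tumor 2 pale. The Rgs5-high bars are tallest at 1 gene, the Dcn-high bars at 4 genes in tumor 1 and at 3 in tumor 2.

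The gene that led also differed. Among Dcn-high cells with a read of any of the 10, Cxcl14 had the highest RPKM in 51.2% of cells of tumor 1 and 45.8% of tumor 2. In Rgs5-high cells, Ccl11 led in 28.0% and 20.7%, Cxcl1 in 25.1% and 27.4%, and Ccl2 in 15.9% and 16.2%. Cxcl14 led in 5.80% and 3.35% of Rgs5-high cells.

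**Figure D2:**
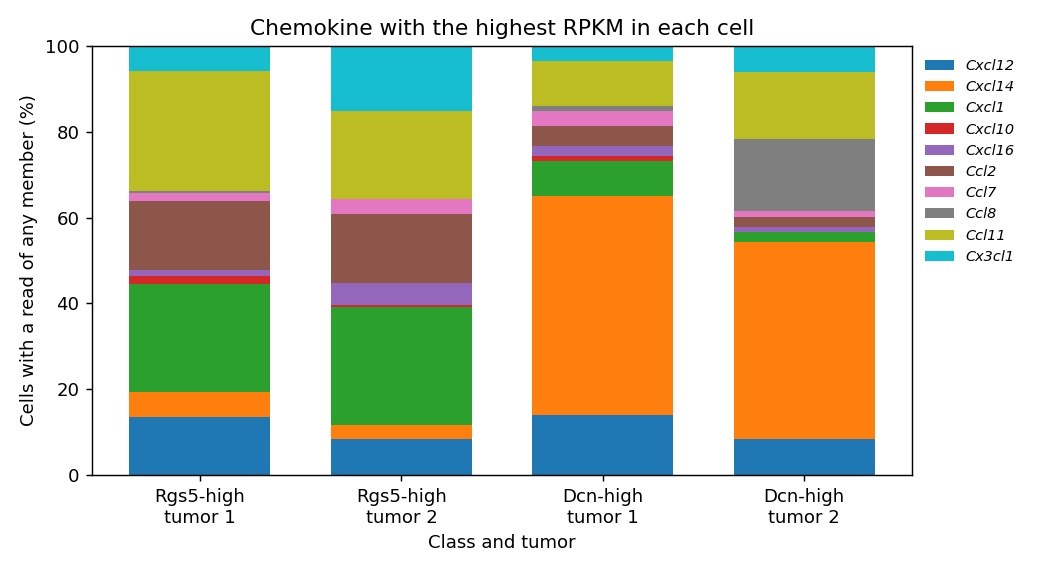
Percent of cells with a read of any of the 10 chemokines (y axis) in which each gene had the highest RPKM, stacked by gene, for each class and tumor (x axis). Cxcl14 takes 51.2% and 45.8% of the Dcn-high cells and 5.80% and 3.35% of the Rgs5-high cells.

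To compare the classes with the tumor as the replicate, the counts of all cells of a class were summed in each tumor, and the 4 libraries were fitted with edgeR's quasi-likelihood test across 11715 genes at a Benjamini-Hochberg adjusted p of 0.05. All 10 chemokines passed the minimum mean RPKM of 1. Of them, 5 were called higher in Dcn-high cells, against 9.72% of all genes tested in that direction, and 0 higher in Rgs5-high cells, against 6.65%. DESeq2 and limma on log2(RPKM + 1) called 6 and 7 of them higher in Dcn-high cells, against 14.2% and 21.2% of all genes, and 0 higher in Rgs5-high cells, against 10.9% and 8.2%. At an unadjusted p under 0.05, edgeR had 0 of them higher there, DESeq2 1 and limma 1. With the tumor as a block, since both libraries of a tumor came from the same animal, 6 were called higher in Dcn-high cells against 11.1% of all genes, and 0 in Rgs5-high cells against 7.51%. Where 1 library was left out, the class with 1 library left was assumed to vary like the other class, whose 2 libraries alone set the spread, so those adjusted p-values rest on less than the others. Levels of 1 gene in these libraries are given as RPM, its reads scaled to the endogenous reads of the library. The median log2 difference was 2.45 over the 10 genes and -0.03 over all genes. With ERCC totals as the library size the median of all genes was 0.62 and 86.7% of calls were higher in Dcn-high cells, against 59.4% in the fit reported here.

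**Figure D3:**
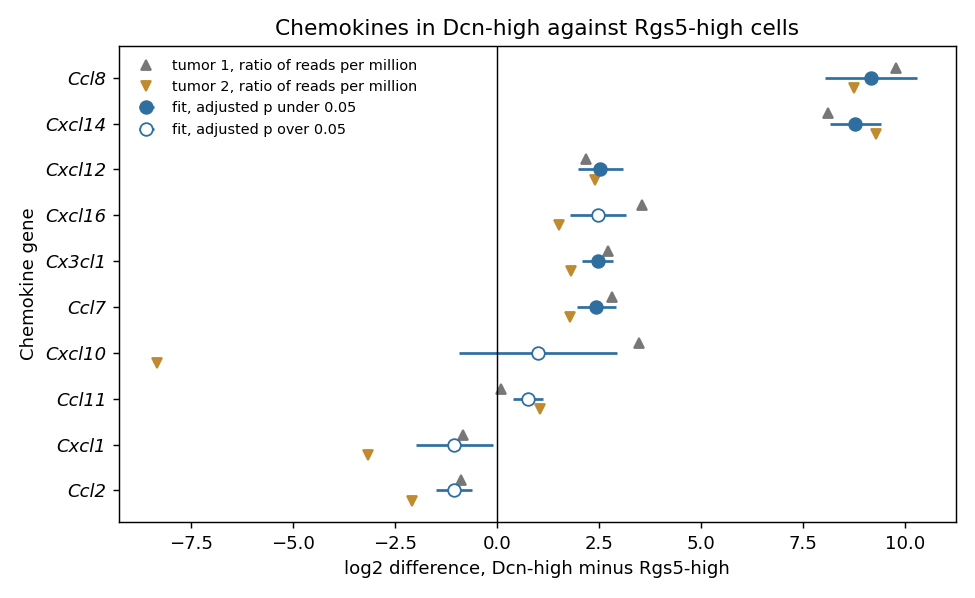
Fitted log2 difference, Dcn-high minus Rgs5-high (x axis, circles with SE bars, filled where the adjusted p was under 0.05), for each chemokine (y axis), with the ratio of RPM within tumor 1 (upward triangles) and tumor 2 (downward triangles). Both triangles lie above 0 for 7 genes and below 0 for Cxcl1 and Ccl2, and Cxcl10 has one on each side.

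Cxcl14, which attracts dendritic cells and other leukocytes, was the chemokine with the highest mean RPKM in Dcn-high cells, 454 in tumor 1 and 310 in tumor 2. A read was found in 66 of 86 and 66 of 84 of these cells, 76.7% (66.4 to 85.2, exact 95% interval) and 78.6% (68.3 to 86.8). Single cells ranged from 0 to 3278 RPKM in tumor 1, with a median of 202, and from 0 to 3398 in tumor 2, with a median of 143. In Rgs5-high cells 33 of 262 and 15 of 240 had a read, or 12.6% and 6.25%, which was 5.10% and 2.65% after thinning and 2.29% and 0.83% at an RPKM of at least 10, while in Dcn-high cells these shares were 79.0% and 73.8%, and 74.4% and 72.6%. Among cells with a read the median RPKM was 2.55 and 2.76 in Rgs5-high and 418 and 194 in Dcn-high cells. The summed libraries held 890 and 716 RPM in Dcn-high and 3.20 and 1.14 in Rgs5-high cells. The log2 difference was 8.79 (SE 0.62, edgeR adjusted p = 0.0010), and 9.75 without the Rgs5-high library of tumor 1. With limma, which compared means over cells of log2(RPKM + 1), it was 5.77.

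Ccl8, or MCP-2, a ligand of CC receptors on monocytes and T cells, was close to absent from Rgs5-high cells. In each tumor 1 such cell had reads, 1 read in tumor 1 and 7 in tumor 2, whereas 28 of 86 and 37 of 84 Dcn-high cells had 374 and 1244 reads in all. The ratio of RPM was 884 in tumor 1 (158 to 35021, exact 95% counting interval) and 432 in tumor 2 (209 to 1076). These intervals take every read as independent and leave out the spread between cells. The 2 Dcn-high libraries stood apart from each other as well, at 16.1 and 62.8 RPM, and both lay far above the Rgs5-high ones at 0.018 and 0.145. The edgeR adjusted p was 0.0058. The fitted log2 difference of 9.17 (SE 1.14) rests on few Rgs5-high reads, and its dependence on the prior count was not tested. With 1 library left out it ran from 7.90 without the Dcn-high library of tumor 2 to 11.04 without the Rgs5-high library of tumor 2, and was 8.32 and 9.84 without the Rgs5-high and the Dcn-high library of tumor 1. Over all alternatives tested it ran from 2.52 with limma on log2(RPKM + 1) to 11.88 with a stricter class rule.

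Cxcl12, or SDF-1, the ligand of Cxcr4 and Ackr3 that retains hematopoietic cells in bone marrow, had a read in 65.1% (54.1 to 75.1) of Dcn-high cells of tumor 1 and 40.5% (29.9 to 51.7) of tumor 2, against 24.8% (19.7 to 30.5) and 14.6% (10.4 to 19.7) of Rgs5-high cells. The libraries held 349 and 169 RPM in Dcn-high and 76.5 and 32.1 in Rgs5-high cells, so tumor 1 was the higher in both classes. The log2 difference was 2.53 (SE 0.55, edgeR adjusted p = 0.035). Without the Dcn-high library of tumor 1 the difference was 1.88 and the adjusted p 0.081, and without the Rgs5-high library of tumor 1 the difference was 3.31.

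Cx3cl1 was read in 60.5% (49.3 to 70.8) and 51.2% (40.0 to 62.3) of Dcn-high cells and in 16.03% (11.8 to 21.04) and 22.5% (17.4 to 28.3) of Rgs5-high cells. Its level was modest in both, with the highest single cell at 331 RPKM in Dcn-high and 108 in Rgs5-high cells. The libraries held 102 and 113 RPM against 15.3 and 31.9 and did not overlap. The log2 difference was 2.47 (SE 0.37, edgeR adjusted p = 0.011), and 3.07 without the Rgs5-high library of tumor 2.

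Ccl7, or MCP-3, a monocyte attractant, was read in few cells of either class, 10 of 86 and 12 of 84 Dcn-high cells and 8 of 262 and 16 of 240 Rgs5-high cells. The libraries held 48.6 and 61.2 RPM in Dcn-high and 6.93 and 17.7 in Rgs5-high cells, a log2 difference of 2.44 (SE 0.48, edgeR adjusted p = 0.026). In the Dcn-high cells of tumor 2, 60.8% of these reads came from 1 cell, and in those of tumor 1, 43.9%. The call was lost without the Dcn-high library of tumor 2 (2.28, adjusted p = 0.064), without cells with a read of Epcam, Ptprc or Pecam1 (2.82, adjusted p = 0.085) and without cells with a read of any immune marker (2.32, adjusted p = 0.060). Without the Rgs5-high library of tumor 2 the difference was 3.24. With limma it was 0.57 on log2(RPKM + 1) and 0.84 on log2(RPKM + 0.1).

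Cxcl16, a transmembrane chemokine and ligand of Cxcr6, was read in 32.6% (22.8 to 43.5) and 25.0% (16.2 to 35.6) of Dcn-high cells, against 4.58% (2.39 to 7.86) and 7.08% (4.18 to 11.1) of Rgs5-high cells. The Dcn-high libraries, at 28.2 and 28.9 RPM, were both above the Rgs5-high ones, at 2.40 and 10.1. The log2 difference of 2.47 (SE 0.69) did not pass the test without a block (edgeR adjusted p = 0.072) and passed it with the block (2.79, adjusted p = 0.034), with DESeq2 (2.48, adjusted p = 0.0021), with limma, with ERCC totals and with no filter on genes. Without the Rgs5-high library of tumor 2, which left 1 Rgs5-high library, it was 3.83 (adjusted p = 0.0038), and without that of tumor 1 it was 1.78 (adjusted p = 0.052). Zmynd15, which shares sequence with it, had 0 and 11 reads in Dcn-high and 1 and 52 in Rgs5-high libraries.

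**Figure D4:**
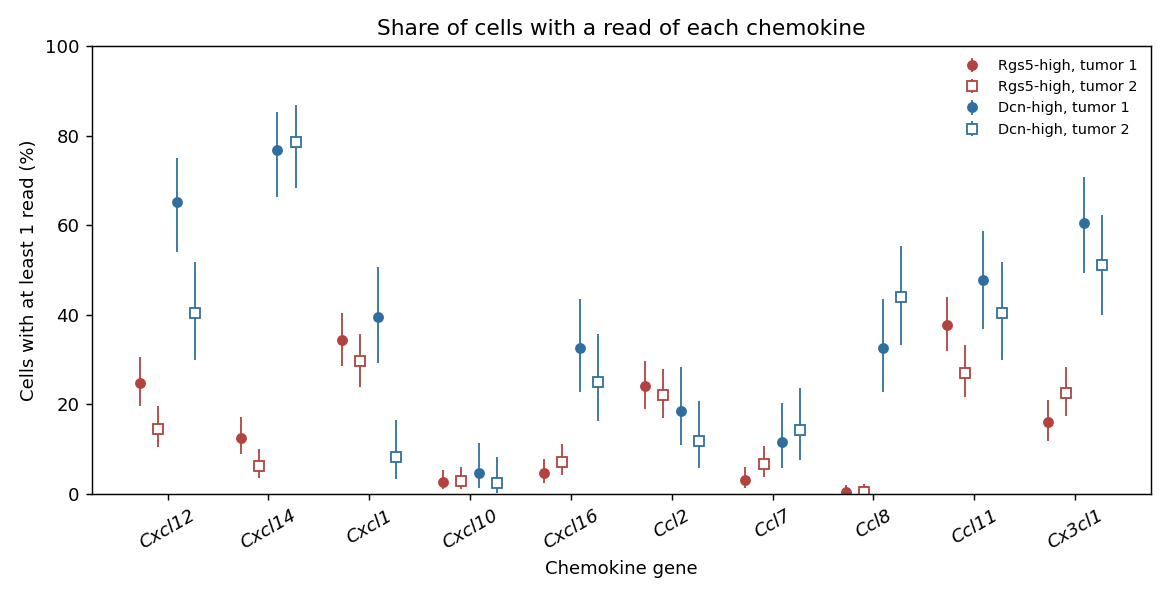
Percent of cells with at least 1 read (y axis) of each chemokine (x axis) in Rgs5-high (red) and Dcn-high cells (blue), tumor 1 filled and tumor 2 open, with exact 95% binomial intervals that cover counting error only. The intervals of the classes lie apart in both tumors for Cxcl12, Cxcl14, Cxcl16, Ccl8 and Cx3cl1.

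In 7 of the 10 genes the share of cells with a read was larger in Dcn-high cells in both tumors. The count was 7 as well after thinning and with an RPKM of at least 10 in place of 1 read. The same count over all genes was not made, so the 7 have no background share beside them. Ccl2 had the larger share in Rgs5-high cells in both tumors, and for Cxcl1 and Cxcl10 the tumors differed. For Cxcl1 the direction in tumor 1 turned, with 29.6% of Dcn-high and 31.0% of Rgs5-high cells after thinning and 29.1% and 30.9% at an RPKM of at least 10, so that 2 genes then had the larger share in Rgs5-high cells in both tumors.

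Cxcl1, or KC, an attractant of neutrophils through Cxcr2 and an early target of inflammatory signaling, had the highest mean RPKM of the list in Rgs5-high cells, 285 in tumor 1 and 157 in tumor 2. It was followed by Ccl2 at 232 and 143 and Ccl11 at 181 and 86.4, and the values of these neighbors overlapped between tumors. A read of Cxcl1 was present in 34.4% (28.6 to 40.4) and 29.6% (23.9 to 35.8) of Rgs5-high cells, and the highest cell reached 8161 RPKM. Among Dcn-high cells the tumors stood apart, with a read in 39.5% (29.2 to 50.7) in tumor 1 and 8.33% (3.42 to 16.4) in tumor 2. The Rgs5-high libraries held 292 and 164 RPM and the Dcn-high ones 163 and 18.2. The log2 difference was -1.05 (SE 0.94, edgeR adjusted p = 0.53), and with only the Dcn-high library of tumor 2 in that class it was -3.40 (adjusted p = 0.014), and with only that of tumor 1 it was -0.19 (adjusted p = 0.79).

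Ccl2, or MCP-1, the main monocyte attractant acting on Ccr2, was read in 24.05% (19 to 29.7) and 22.1% (17 to 27.9) of Rgs5-high cells and in 18.6% (11.02 to 28.4) and 11.9% (5.86 to 20.8) of Dcn-high cells. The Rgs5-high libraries, at 157 and 140 RPM, lay above the Dcn-high ones, at 84.5 and 32.9. The log2 difference of -1.06 (SE 0.45) did not pass the test (edgeR adjusted p = 0.19). With only the Dcn-high library of tumor 2 in that class it was -1.92 (adjusted p = 0.0094), and with only that of tumor 1 it was -0.52 (adjusted p = 0.17). Reads were concentrated in few cells, 1 cell holding 56.3% and 69.5% of those in the Dcn-high and 20.4% and 21.3% of those in the Rgs5-high libraries.

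Ccl11, or eotaxin, which attracts eosinophils through Ccr3, was abundant in both classes, with a read in 37.8% (31.9 to 44.0) and 27.1% (21.6 to 33.2) of Rgs5-high and 47.7% (36.8 to 58.7) and 40.5% (29.9 to 51.7) of Dcn-high cells. Its mean RPKM in Dcn-high cells, 212 and 187, was second to that of Cxcl14. The libraries held 219 and 107 RPM in Rgs5-high and 236 and 222 in Dcn-high cells. The log2 difference was 0.76 (SE 0.36, edgeR adjusted p = 0.23), and with only the Rgs5-high library of tumor 2 in that class it was 1.40 (adjusted p = 0.015), while with only that of tumor 1 it was 0.32 (adjusted p = 0.55). It also passed with limma on log2(RPKM + 1) (1.08, adjusted p = 0.0498) and on log2(RPKM + 0.1) (1.47, adjusted p = 0.049), and with ERCC totals as the library size (1.44, adjusted p = 0.026), where the median of all genes was 0.62.

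Cxcl10, or IP-10, an interferon-induced attractant of Cxcr3-bearing T cells, was read in few cells, 7 of 262 and 7 of 240 Rgs5-high and 4 of 86 and 2 of 84 Dcn-high cells. The libraries held 8.34 and 48.9 RPM in Rgs5-high and 93.0 and 0.151 in Dcn-high cells, so the classes overlapped. Of these reads 87.6%, 97.2% and 99.8% came from 1 cell each in the first 3 of these libraries, and the fourth had 3 reads. The log2 difference was 1.01 (SE 1.93, edgeR adjusted p = 0.78), and its sign turned without the Dcn-high library of tumor 1 (-7.28, adjusted p = 0.056). Art3, which shares part of its sequence on the other strand, had 488 and 493 RPM in Rgs5-high and 5.89 and 13.9 in Dcn-high libraries.

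**Figure D5:**
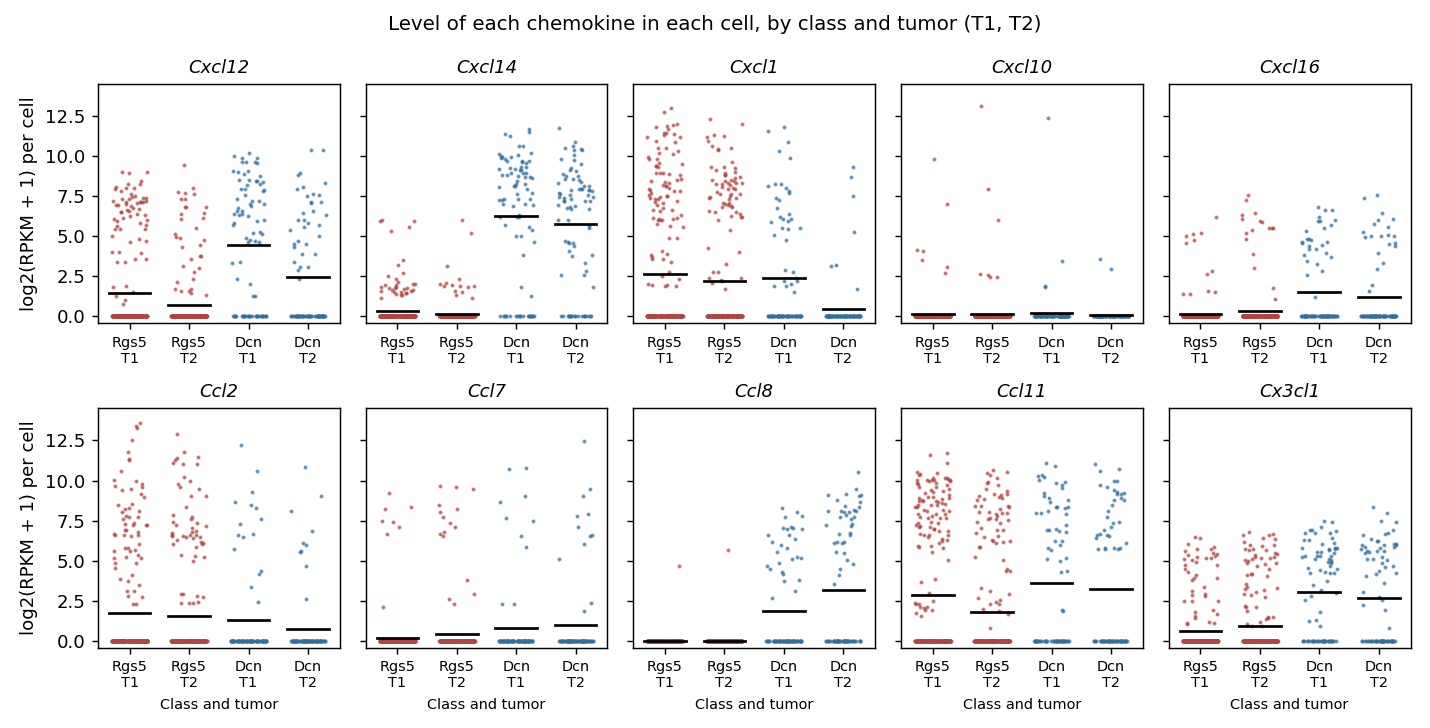
Level of each chemokine as log2(RPKM + 1) (y axis) in each Rgs5-high cell (red) and each Dcn-high cell (blue), by class and tumor (x axis, T1 and T2 the tumors). There is 1 point per cell and a black line at the mean over cells. Cxcl14 and Ccl8 are near 0 in nearly all Rgs5-high cells, Cxcl1, Ccl2 and Ccl11 have cells above 10 in both classes, and Cxcl10 is high in only a few cells.

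In the order of mean RPKM over both tumors, Dcn-high cells ran from Cxcl14 (382 ± 102, SD, n = 2 tumors) through Ccl11 (199 ± 17.6) and Cxcl12 (125 ± 72.2) to Cxcl16 (11.5 ± 0.13), and Rgs5-high cells from Cxcl1 (221 ± 90.4) through Ccl2 (188 ± 63.0) and Ccl11 (134 ± 67.3) to Ccl8 (0.15 ± 0.081). In Dcn-high cells both tumors kept Cxcl14 above Ccl11 and Ccl11 above Cxcl12, while from Cxcl12 to Ccl2 each neighbor overlapped with the next. In Rgs5-high cells the tumors of neighboring genes lay apart between Ccl11 and Cxcl10 and between Cxcl14 and Ccl8 and overlapped elsewhere. The 4 genes within 81.2 kb on chromosome 11 had log2 differences between the classes of -1.06 (Ccl2), 2.44 (Ccl7), 0.76 (Ccl11) and 9.17 (Ccl8).

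Within a class, some chemokines were read in the same cells. Of Dcn-high cells with a read of Ccl7, 7 of 10 in tumor 1 and 6 of 12 in tumor 2 also had a read of Ccl2, which 16 of 86 and 10 of 84 Dcn-high cells had in all. Spearman's rho of their levels across the Dcn-high cells was 0.47 and 0.51. In Rgs5-high cells the pair gave 0.022 and 0.30. Cxcl14 and Cx3cl1 were read together in 45 of 52 and 38 of 43 Dcn-high cells with Cx3cl1, while 66 of 86 and 66 of 84 of all Dcn-high cells had a read of Cxcl14, with rho of 0.29 and 0.33. These are descriptions over cells that share plate, animal and range of depth.

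Among 10815 genes ranked across cells of the class in which a member was read most often, those nearest to Cxcl1 in Rgs5-high cells were Zfp36, which encodes an mRNA-destabilizing protein (rho 0.34 and 0.35 in the 2 tumors), the nuclear receptor gene Nr4a1 (0.31 and 0.29) and the cytokine gene Il6 (0.28 and 0.35). The NF-kB inhibitor gene Nfkbia (0.24 and 0.21) was nearest to Ccl2. Across the Rgs5-high cells, Cxcl1 had a rho of 0.39 in each tumor with the mean of the 15 immediate early genes, and in Dcn-high cells 0.55 and 0.16. That mean itself had a rho of 0.21 and 0.28 with depth in Rgs5-high and of 0.53 and 0.45 in Dcn-high cells. In Dcn-high cells, Cxcl14 was most like F5, the gene for coagulation factor V (0.47 and 0.47), Cxcl12 most like Bmper (0.38 and 0.40), Ccl11 most like the collagen gene Col3a1 (0.45 and 0.55), Ccl8 most like Crabp1 (0.37 and 0.43), Cxcl16 most like Acvrl1 (0.32 and 0.37) and Cx3cl1 most like Igfbp7 (0.36 and 0.34).

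Of 28 other chemokine genes, 8 passed the minimum level, with 1 called higher in each class, against 9.72% of all genes in Dcn-high and 6.65% in Rgs5-high cells. DESeq2 and limma each called 2 higher in Dcn-high cells, against 14.2% and 21.2% of all genes. Each called 1 higher in Rgs5-high cells, against 10.9% and 8.2%. Cxcl5, a neutrophil attractant related to Cxcl1, had 52.2 and 17.9 RPM in Dcn-high and 0 and 0.291 in Rgs5-high cells (edgeR adjusted p = 0.015), a ratio of at least 958 in tumor 1 against 3 reads in the Rgs5-high library, and of 61.4 (36.1 to 113) in tumor 2. Its reads came from 7 of 86 and 6 of 84 Dcn-high cells, and the interval, which takes every read as independent, leaves out the spread between cells. Ccl19, a ligand of Ccr7, had 1.09 and 3.30 RPM in Rgs5-high and 0 and 0.0504 in Dcn-high cells (edgeR adjusted p = 0.043), with 1 read in the Dcn-high library of tumor 2.

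Of 23 chemokine receptor genes 4 passed the minimum and 0 were called by edgeR. At an unadjusted p under 0.05, edgeR had 1 in each direction. DESeq2 and limma each called 1 higher in Dcn-high cells, against 14.2% and 21.2% of all genes. Each called 1 higher in Rgs5-high cells, against 10.9% and 8.2%. With the block, Ccrl2 was higher in Rgs5-high cells (edgeR adjusted p = 0.011, against 0.064 without it). Ackr3, the scavenging receptor of Cxcl12, was read in 36.0% and 39.3% of Dcn-high and 9.16% and 7.92% of Rgs5-high cells. Its log2 difference was 2.15 (SE 0.62, edgeR adjusted p = 0.079). In Rgs5-high cells the receptor gene read most often was Cxcr5, in 11.8% and 22.5%, which did not pass the minimum. Ccr2, Ccr3, Cxcr2 and Cxcr3, receptors of Ccl2, Ccl11, Cxcl1 and Cxcl10, had 0 reads in the cells of both classes.

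Among 7 tested genes whose products cleave or bind chemokines, 5 were called higher in Dcn-high cells, against 9.72% of all genes. They were the collagenase gene Mmp13, the gelatinase gene Mmp2 (3.75, SE 0.18, edgeR adjusted p = 0.00037), Mmp14, the chemokine-binding Tnfaip6 (3.81, SE 0.41, adjusted p = 0.0036) and the sheddase gene Adam17 (1.01, SE 0.17, adjusted p = 0.014). Mmp13 held 1056 and 1387 RPM in Dcn-high and 0.764 and 12.4 in Rgs5-high cells. The sheddase gene Adam10 had a log2 difference of -0.47 (adjusted p = 0.10, unadjusted p = 0.023). DESeq2 called 5 of the 7 higher in Dcn-high cells, against 14.2% of all genes, and 1 higher in Rgs5-high cells, against 10.9%. Limma called 5 and 0, against 21.2% and 8.2%.

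Of 19 tested genes of NF-kB and cytokine response, 4 were called higher in Dcn-high cells, against 9.72% of all genes. In Rgs5-high cells 2 were called higher, Rela and Il1r1, against 6.65%. With the block the counts were 5 and 2, against 11.1% and 7.51%. DESeq2 called 5 and 2, against 14.2% and 10.9%, and limma 6 and 2, against 21.2% and 8.2%. The 4 called by edgeR without the block included the adhesion genes Vcam1 (5.31, SE 0.39, edgeR adjusted p = 0.0011) and Icam1 (2.46, SE 0.19, adjusted p = 0.0013) and the macrophage growth factor gene Csf1 (3.18, SE 0.21, adjusted p = 0.00088). The last was the prostaglandin synthase gene Ptgs2, with 75.0 and 70.2 RPM in Dcn-high cells and 0 reads in both Rgs5-high libraries. Its ratio was at least 1375 and 1127 against 3 reads per library. Of 20 interferon response genes, edgeR called 1, the receptor gene Ifngr1, higher in Dcn-high cells, against 9.72% of all genes. It called 1, Ifngr2, higher in Rgs5-high cells, against 6.65%. With the block, 3 were called higher in Dcn-high cells, against 11.1%, and 2 in Rgs5-high cells, against 7.51%. DESeq2 called 8 higher in Dcn-high cells, against 14.2% of all genes, and 1 higher in Rgs5-high cells, against 10.9%. Limma called 8 and 0, against 21.2% and 8.2%. Of 15 immediate early genes, Ier2 was called higher in Dcn-high cells, against 9.72% of all genes, and 3 were called with the block, against 11.1%. DESeq2 called 5 higher in Dcn-high cells, against 14.2% of all genes. Limma on log2(RPKM + 1) called 1 higher in Dcn-high cells, against 21.2%, and 2 higher in Rgs5-high cells, against 8.2%. The median log2 difference was 1.40 for the chemokine-processing genes, 0.24 for the NF-kB list, 0.59 for the interferon list and 0.42 for the immediate early genes.

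Markers of other cells were read as well. Reads of Epcam, Ptprc or Pecam1, genes of markers used in the sort, were present in 8 of 262 and 21 of 240 Rgs5-high and in 6 of 86 and 14 of 84 Dcn-high cells. Cspg4, the gene of NG2, had 361 and 480 RPM in Rgs5-high and 65.4 and 146 in Dcn-high cells. Of the 9 immune markers in the tables, reads of at least 1 were present in 27.9% and 17.9% of Dcn-high and 4.96% and 6.67% of Rgs5-high cells, and their summed level was 13.6 and 11.7 against 2.20 and 4.34 RPM. Csf1r was the one read most often in Dcn-high cells, in 11 of 86 and 7 of 84, against 1 of 262 and 2 of 240 Rgs5-high cells. Ptprc, Itgam and Cd3e were at 0 in both Dcn-high libraries, and of 3 tested markers edgeR called 0, had 0 at an unadjusted p under 0.05, and DESeq2 and limma called 0. Among the 62 and 69 Dcn-high and 249 and 224 Rgs5-high cells without any such read, Cxcl12, Cxcl14, Ccl8 and Cx3cl1 were called higher in Dcn-high cells, against 8.66% of all genes, Ccl7 was not, and 0 were called higher in Rgs5-high cells, against 5.74%. The summed level of 6 developmental markers was 258 and 267 RPM in Dcn-high and 8.14 and 82.2 in Rgs5-high cells. Most of it was Trf, at 194 and 211 RPM in Dcn-high and 5.56 and 66.8 in Rgs5-high cells, which edgeR did not call (adjusted p = 0.15). Of the 6, edgeR called 3 (Scrg1, Mia and Sox10) higher in Dcn-high cells without the block and 2 (Mia and Sox9) with it, DESeq2 called 4 and limma 1, against 9.72%, 11.1%, 14.2% and 21.2% of all genes. Without cells with a read of Scrg1, Mia or Sox10 the number of chemokines called was 5 in Dcn-high cells, against 8.99% of all genes, and 0 in Rgs5-high cells, against 6.31%. Cells with reads of only the other developmental markers, such as Trf, stayed in. Of 8 epithelial markers edgeR called 0 (1 with the block, and 2 at an unadjusted p under 0.05), DESeq2 2 and limma 1. All of these were higher in Dcn-high cells, where edgeR, edgeR with the block, DESeq2 and limma called 9.72%, 11.1%, 14.2% and 21.2% of all genes. The summed levels of the 8 were 33.3 and 27.0 RPM in Dcn-high and 6.00 and 37.1 in Rgs5-high cells. Of 2 tested endothelial markers, edgeR called 1, Emcn, higher in Rgs5-high cells, at 111 and 198 RPM against 0.215 and 0.101, where 6.65% of all genes were called. The other, Egfl7, had 8.02 and 4.69 against 0.817 and 1.16 RPM (log2 difference -2.41, edgeR adjusted p = 0.074). DESeq2 and limma called both higher in Rgs5-high cells, against 10.9% and 8.2% of all genes. By edgeR, 3 of 5 cycling markers were higher in Rgs5-high cells as well, Top2a, Mki67 and Cdk1, against 6.65% of all genes. The part of depth, spike-in share and these cells in the chemokine differences beyond the counts given was not tested.

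In the 55 cells that were in neither class, whose developmental markers summed to 9214 and 9431 RPM, a median of 2 and 1 of the 10 chemokines had a read. Cxcl12 was read in 9 of 25 and 12 of 30 of them, Cxcl14 in 8 and 9, and Cx3cl1 in 7 and 8. Ccl8 was read in 1 of 25 and 0 of 30, a count of 0 that allows, at 3 counts, a share of up to 10% in tumor 2, and Ccl11 in 3 and 2.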

How the data were processed

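Single cells from 2 mammary tumors were measured by Smart-seq2. The authors aligned single-end reads of 43 bases to mm10 with STAR v2.3.0 at default settings and deposited counts of reads per RefSeq gene, whole and not normalized, and RPKM values from rpkmforgenes, which divides by the length of the gene model and by the mappable reads. The kept wells held 10281 to 1190516 endogenous reads. No unused columns (0) were found. The sort was set to 1 cell per well, and doublets were not called. Of the cells in neither class, 6 of 25 in tumor 1 and 2 of 30 in tumor 2 had both Rgs5 and Dcn at or over the level. Whether a well held more than 1 cell was not tested.

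Classes came from Rgs5 and Dcn in the RPKM table. Counts were summed by class and tumor, and genes whose mean RPKM reached 1 were tested with edgeR 4.0.16 (TMM, glmQLFit, glmQLFTest). The method was also run on simulated counts with a common dispersion for all genes and no effect of the animal. That run cannot show how the test fares where few cells hold most reads. Deviations from the class means correlated by 0.141 between the libraries of a tumor, which came from 1 animal. Alternatives used DESeq2 1.42.0, limma 3.58.1 (pseudocounts 1 and 0.1), other filters, classes and cells. Shares carry exact 95% binomial intervals, and a count of 0 allows 3 counts, for counting error only, since Smart-seq2 has no molecular identifiers. Intervals of RPM ratios take every read as independent, although reads of 1 cell are not, and leave out the spread between cells and tumors. The genes named are all members and, in each list, up to 4 per direction by fold among those called. Adam17, Adam10, Ackr3, Ccrl2, Cxcr5, Sox9, Trf, Egfl7, Csf1r and the receptors and markers at 0 were named after their values were seen, and Zmynd15 and Art3 for shared sequence. A gene counted as like a member was ranked by the lower rho of both tumors, among genes with a mean of at least 1 read, for members read in at least 20% of cells of a class. The members and lists were chosen with earlier results of these data known.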

Additional observations from a re-analysis of the deposited data

Results flagged for a closer look

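Cxcl10 was the gene of the list whose tumors moved in opposite directions. The log2 ratio of Dcn-high over Rgs5-high RPM was 3.48 in tumor 1 and -8.34 in tumor 2, and the difference between the tumors was not tested. The Dcn-high library of tumor 2 had 3 reads, and the ratio there was 0.00309 (0.000637 to 0.00905, exact 95% counting interval). This interval takes every read as independent and leaves out the spread between cells. In tumor 1, 2159 of the 2164 reads of the Dcn-high cells came from 1 cell, and in tumor 2, 2290 of the 2356 reads of the Rgs5-high cells came from 1 cell.

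The 41 wells under the minimum of 10000 endogenous reads entered no comparison. Together they held 100255 endogenous reads, in which a count of 0 allows up to 29.9 RPM. Above that limit were Cxcl1 with 38 reads in 4 wells, Ccl11 with 11 reads in 5 wells and Cxcl12 with 5 reads in 3 wells, or 379, 110 and 49.9 RPM. The kept wells held 183, 175 and 118 RPM of these genes.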

How the results depend on the processing

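The 10 chemokines were refitted under 22 alternatives each. Of these 220 refits, 195 kept the direction and the side of the threshold, 9 lost the call, 13 gained one and 3 turned the sign, all of Cxcl10. Those 3 were the replicate block (-0.89, edgeR adjusted p = 0.93), the set without cells with immune marker reads (-6.67) and that without the Dcn-high library of tumor 1 (-7.28). An adjusted p of 0.001 left 0 of the 10 called, with 132 genes called higher in Dcn-high and 58 higher in Rgs5-high cells. The replicate block called 6, and changed no other call of a chemokine than that of Cxcl16. Genes called higher in Dcn-high cells numbered 1139 as reported, 3342 with ERCC totals as the library size and 2480 and 3114 with limma at pseudocounts of 1 and 0.1. Genes called higher in Rgs5-high cells numbered 779 as reported, 514 with ERCC totals and 1273 with DESeq2, and 498 to 834 when a library was left out. Without 1 of the tumors no spread is left, and those values carry no test. For Cxcl10 they were -8.34 and 3.48. The cause of these changes was not tested. Leaving out cells with immune marker reads or with Scrg1, Mia or Sox10 reads was chosen after seeing the data. Of 40 shares of cells, 37 stayed within their interval after thinning and 33 with an RPKM of at least 10. DESeq2 called 8 interferon response genes and 5 immediate early genes higher in Dcn-high cells and limma on log2(RPKM + 1) 8 and 1, against 1 and 1 as reported, where DESeq2, limma and edgeR called 14.2%, 21.2% and 9.72% of all genes. Precision was limited by the number of tumors, 2, and 7 of the 10 genes were read in under 50% of the cells of either class.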
